A study of Mus musculus with 4 samples.

Results

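The genes described here are those of the creatine and phosphotransfer system of the heart. They are 7 of the 23337 genes listed in the deposited count files, and they were picked by name: the creatine kinases *Ckm*, *Ckmt2* and *Ckb*, the creatine transporter *Slc6a8*, the creatine synthesis enzymes *Gatm* and *Gamt*, and the adenylate kinase *Ak1*. RNA-seq was run on hearts of C57BL6/J mice at 2 and 6 months of age. Control mice were PIMT fl/fl, with both copies of the PIMT gene (*Tgs1*) carrying loxP sites, and csPIMT-/- mice were PIMT fl/fl mice that also carried α-MyHC-Cre. This Cre is driven by the α-myosin heavy chain promoter and deletes exons 3 and 4 of *Tgs1* in cardiomyocytes, so other cells of the heart keep the gene. Each of the 4 libraries was made from the pooled RNA of 5 hearts of male and female mice, with 1 library per genotype and age. No spread between mice can therefore be measured. Every interval given for a ratio of 2 pools is a 95% Clopper-Pearson interval of their reads, which covers counting error only.

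Heart muscle keeps its ATP level steady by moving high-energy phosphate between ATP and phosphocreatine. Mitochondrial creatine kinase loads the phosphate onto creatine where ATP is made, cytosolic creatine kinase returns it to ADP beside the myofibrils and the calcium pumps, and adenylate kinase works in parallel by turning ADP into ATP and AMP. The heart itself makes little creatine and takes it up from the blood through a transporter, and a low creatine kinase flux is a known feature of the failing heart.

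The 4 libraries held 29823073 to 40705783 reads over genes, and the csPIMT-/- pool of 2 months was the shallowest. *Tgs1* had 670 reads in the control pool and 130 in the csPIMT-/- pool at 2 months, and 928 and 156 reads at 6 months. The targeted gene thus stood at 0.271 of control at 2 months and at 0.194 at 6 months. The ratio of a gene rose with the GC content of its transcript across the whole table (Spearman's rho across genes 0.594 at 2 months and 0.621 at 6 months, a description over genes that share libraries), and with this trend subtracted *Tgs1* stood at 0.656 and 0.537. The 8 cardiomyocyte markers had a median ratio of 1.27 at 2 months, where 5 were higher, and 1.02 at 6 months, where 4 were. At 2 months they ran from 0.381 for *Pln* to 1.99 for *Mybpc3*. *Myh6*, the most read of them, had ratios of 0.974 and 0.750, and none of the 8 was at 0 in any pool.

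At 2 months, 6 of the 7 genes were higher in the csPIMT-/- pool than in the control pool, with ratios of 1.42 to 2.22, and *Gatm* alone was lower, at 0.673. At 6 months, 4 of the 7 were higher and 3 were lower, with ratios from 0.721 to 2.36. These directions depend on the GC trend: with it subtracted, 7 of 7 were above 1 at 2 months and 3 of 7 at 6 months. *Ckb* and *Gamt* were above 2-fold at 2 months and *Slc6a8* was the one gene above it at 6 months. Over all genes tested, 16.4% were above 2-fold at 2 months and 16% at 6 months, and the 2 of 7 and 1 of 7 are given as a description. None of the 7 was below 0.5, where 23% of all genes stood at 2 months and 25.7% at 6 months. In bulk RNA, fewer cells of a type and less RNA per cell cannot be told apart.

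The pools differed in markers of other tissues, the controls included. The 5 atrial markers, led by *Nppa*, summed to 40742 normalized counts in the control pool of 2 months and 121253 in that of 6 months, against 334131 and 349424 in the csPIMT-/- pools. *Nppa*, which is also 1 of the markers of the fetal program, made up most of each sum. It had 38182 and 70659 in the controls and 201180 and 320296 in the csPIMT-/- pools. All 5 were higher in the csPIMT-/- pool at 2 months (median ratio 48.9) and 1 of 5, *Nppa*, was at 6 months (median 0.455). There *Myl7*, *Myl4*, *Sln* and *Bmp10* had ratios of 0.455, 0.774, 0.411 and 0.167. *Bmp10*, an atrial marker named after its values were seen, had 6 reads in the control pool of 2 months and 7159 in that of 6 months. Of 7 brown fat markers, 6 were higher at 2 months (median ratio 13.7), and 3 of 6 tested at 6 months (median 0.855). Their sums of 14372 and 30044 at 2 months, control first, were mostly *Cox7a1*, with 12330.5 and 22197.4. The sums therefore say little about the other markers of this list. *Cox7a1* also had 12442 and 14570.2 at 6 months. *Ucp1*, *Adipoq* and *Plin1*, named after their values were seen, had 10, 6 and 4 reads in the control pool of 2 months. In the csPIMT-/- pool they had 1432, 1484 and 1286 reads, and *Dio2* was the 1 lower marker, at 0.553. Of 5 lung markers, 4 had no read in the control pool of 2 months, where *Bpifa1* had 0 reads against 794 in the csPIMT-/- pool. The remaining lists gave median ratios at 2 and 6 months of 2.51 and 0.729 for smooth muscle, 0.822 and 1.25 for endothelium and 0.905 and 1.96 for fibroblasts. They were 2.51 and 2.10 for macrophages, and 2.07 and 1.89 for Schwann cells and neurons. The most read marker of a list could differ from its median. In the same order of lists, *Acta2* had 0.904 and 0.729, *Vwf* 3.37 and 3.16, *Col3a1* 0.533 and 0.989, *Csf1r* 2.51 and 1.66, and *Uchl1* 1.80 and 8.88. The part of these cells in the ratios of *Ckm*, *Ckmt2*, *Ckb*, *Slc6a8*, *Gatm*, *Gamt* and *Ak1* was not tested.

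**Figure D1:**
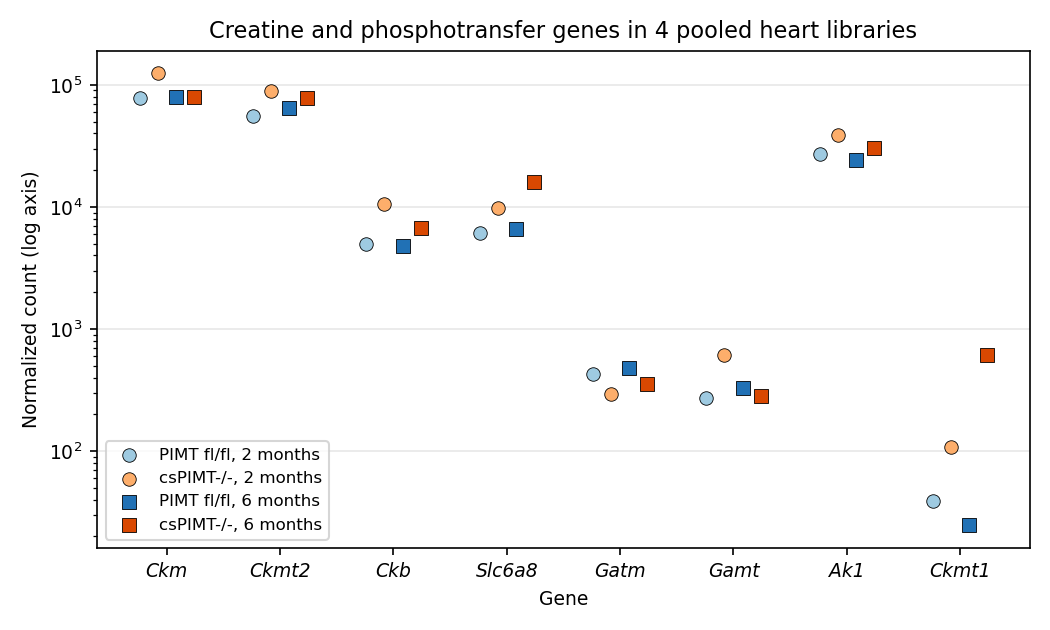
Normalized counts (logarithmic axis) of the 7 genes and of *Ckmt1* in each of the 4 pooled libraries, with 1 point per library and no error bar, because there is 1 library per genotype and age. *Slc6a8* is highest in the csPIMT-/- pool of 6 months, at 15947, and *Gamt* is highest in the csPIMT-/- pool of 2 months, at 610.

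*Ckm*, the muscle creatine kinase of the cytosol (chr7:19404776-19422841, plus strand, mm10), was the most read of the 7 genes. Its normalized count was 78507 in the control pool and 124380 in the csPIMT-/- pool at 2 months. At 6 months it was 79485 in the control pool and 79224 in the csPIMT-/- pool. The csPIMT-/- pool of 2 months was the high one, and the other 3 pools lay within a narrow band. The ratio was 1.55 at 2 months (interval 1.54 to 1.57) and 0.971 at 6 months (0.962 to 0.980), and on the deposited scale the ratio at 6 months was 0.997.

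*Ckmt2*, the sarcomeric creatine kinase of the mitochondrial intermembrane space (chr13:91853387-91876885, minus strand), was higher in the csPIMT-/- pool at both ages. Its normalized count was 55244 and 88470 at 2 months, control first, and 64999 and 78428 at 6 months. The control pools lay below both csPIMT-/- pools. The ratio was 1.57 at 2 months (1.55 to 1.59) and 1.18 at 6 months (1.16 to 1.19).

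*Ckb*, the brain-type cytosolic kinase that is more abundant in the fetal than in the adult heart (chr12:111669361-111672338, minus strand), had a normalized count of 4957 in the control pool and 10601 in the csPIMT-/- pool at 2 months. At 6 months the counts were 4793 and 6771. The control pools were close to each other and both csPIMT-/- pools stood above them. The ratio was 2.10 at 2 months (2.03 to 2.17) and 1.38 at 6 months (1.33 to 1.43). The 4 markers of the fetal program, led by *Nppa*, were also higher, with a median ratio of 4.60 at 2 months and 6.08 at 6 months. Whether they bear on *Ckb* was not tested.

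The 250 bases before the transcription start of the 3 kinases are shown because these genes make up nearly all creatine kinase reads and differ in where their product works. They are RefSeq sequences on GRCm38.p6, and capitals mark matches on either strand to 5 motifs: TATAAA and its variant form TATATA, the E-box CANNTG, the nuclear receptor element AGGTCA and the MEF2 site. The *Ckm* window is chr7:19410844-19411093 (plus strand, before a start inside the gene span above), that of *Ckmt2* is chr13:91876886-91877135 (minus strand) and that of *Ckb* is chr12:111672339-111672588 (minus strand).
Ckm: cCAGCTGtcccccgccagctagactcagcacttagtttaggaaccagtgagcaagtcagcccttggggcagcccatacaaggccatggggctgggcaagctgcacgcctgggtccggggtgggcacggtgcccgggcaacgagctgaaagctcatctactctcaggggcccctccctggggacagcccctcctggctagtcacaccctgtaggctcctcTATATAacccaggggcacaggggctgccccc
Ckmt2: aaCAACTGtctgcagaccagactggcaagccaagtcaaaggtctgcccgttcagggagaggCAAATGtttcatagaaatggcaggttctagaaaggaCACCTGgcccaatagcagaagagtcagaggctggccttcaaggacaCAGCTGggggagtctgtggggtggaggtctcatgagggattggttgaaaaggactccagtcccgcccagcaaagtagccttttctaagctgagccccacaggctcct
Ckb: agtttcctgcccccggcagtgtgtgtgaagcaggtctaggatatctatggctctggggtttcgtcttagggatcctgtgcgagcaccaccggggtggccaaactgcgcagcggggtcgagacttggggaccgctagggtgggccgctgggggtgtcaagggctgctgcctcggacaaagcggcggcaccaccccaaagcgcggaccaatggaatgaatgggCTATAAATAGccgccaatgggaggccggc
The *Ckm* window holds TATATA 31 bases before the start and an E-box 249 bases before it. The *Ckmt2* window holds 4 E-boxes and neither TATA form. The *Ckb* window holds TATAAA 28 bases before the start inside a MEF2 site that begins 29 bases before it, so the matches overlap. Of 32851 promoter windows of the same length, 12.4% held TATAAA, 5.25% TATATA, 66.2% an E-box, 14.0% AGGTCA and 2.92% a MEF2 site. A match of letters is a description and not evidence that a factor binds there.

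Because the kinases were read in the same library, their quotients do not depend on the scaling between libraries. The reads of *Ckb* per read of *Ckm* were 0.0631 and 0.0603 in the control pools of 2 and 6 months. In the csPIMT-/- pools they were 0.0852 and 0.0855. The csPIMT-/- quotients thus lay close to each other and above both controls at both ages, although the *Ckm* count itself was at the control level at 6 months. The *Ckb* transcript has 59.99% GC and the *Ckm* transcript 54.0%, or 60.9% in its shorter annotated form. The csPIMT-/- quotient was 1.35 times the control quotient at 2 months and 1.42 times at 6 months. With the GC trend subtracted these were 1.12 and 1.19, or 1.37 and 1.44 with the shorter *Ckm* transcript.

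The reads of *Ckmt2* per read of *Ckm* were 0.704 (2 months) and 0.818 (6 months) in controls, against 0.711 and 0.990 in the csPIMT-/- pools. At 2 months the genotypes hardly differed in this quotient, and at 6 months the csPIMT-/- pool had nearly as many reads of the mitochondrial as of the cytosolic kinase. With the GC trend subtracted, the csPIMT-/- quotient was 1.37 times the control quotient at 2 months and 1.65 times at 6 months, against 1.01 and 1.21 in the reads. As shares of all creatine kinase reads, *Ckm* took 56.6% and 53.2% in the controls and 55.6% and 48.0% in the csPIMT-/- pools. *Ckb* took 3.57% and 3.21% in the controls and 4.74% and 4.10% in the csPIMT-/- pools. *Ckmt2* took 39.8% and 39.6% at 2 months, control first, with overlapping exact binomial intervals (39.58 to 40.06% and 39.35 to 39.80%). Those of *Ckm* and *Ckb* did not overlap between genotypes at either age (for *Ckb* at 2 months 3.48 to 3.66% against 4.64 to 4.84%). Nor did they overlap between the ages within either genotype. They cover counting error only, so their lack of overlap is not particular to genotype.

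**Figure D2:**
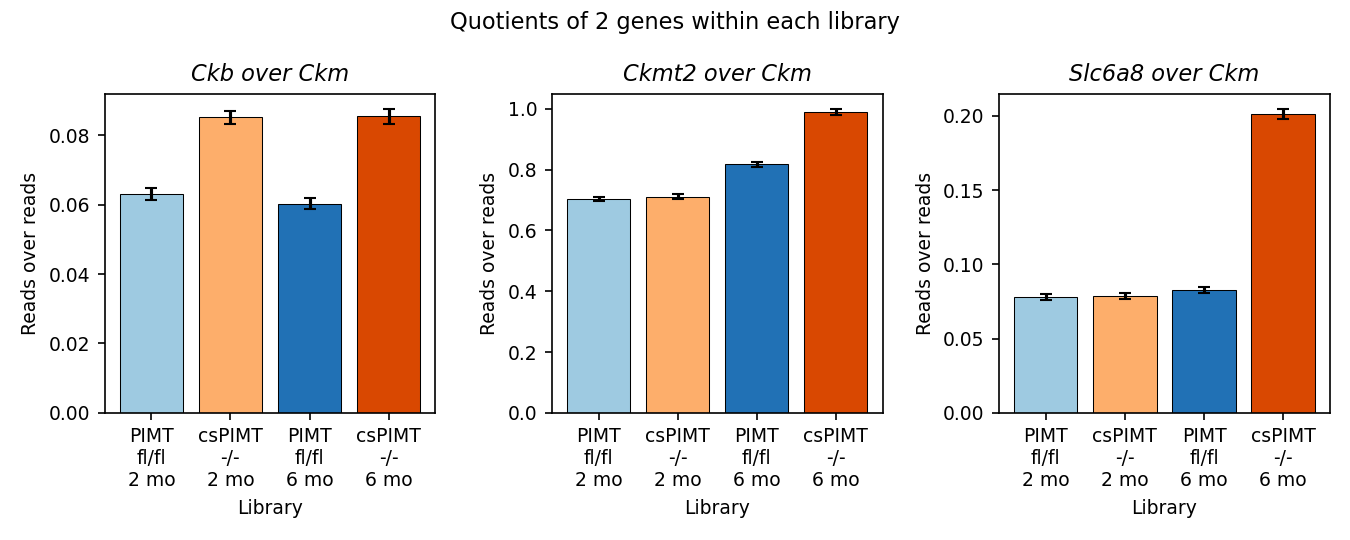
Quotients of reads within each of the 4 pooled libraries, with exact 95% intervals that cover counting error only. *Ckb* over *Ckm* lies at 0.0631 and 0.0603 in the controls and at 0.0852 and 0.0855 in the csPIMT-/- pools, while *Slc6a8* over *Ckm* stands apart only at 6 months, at 0.201.

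*Ckmt1*, the ubiquitous mitochondrial creatine kinase, is not among the 7 genes but belongs to the same family. It had 45 reads in the control and 88 in the csPIMT-/- pool at 2 months, and 28 and 584 reads at 6 months. The 6-month csPIMT-/- pool stood far above the rest, with a ratio of 24.0 (16.5 to 36.5) against 2.73 (1.89 to 4.004) at 2 months. Even there *Ckmt1* was 0.368% of the creatine kinase reads. The list of skeletal muscle markers used here also held *Ckmt1*, and of its 6 other genes tested 5 were higher in the csPIMT-/- pool at 6 months (median ratio 3.85) and 2 at 2 months (median 0.873). Of that list, *Tnni2*, a fast skeletal troponin named after its values were seen, had a ratio of 0.948 at 6 months. The part of skeletal muscle in the *Ckmt1* reads was not tested.

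*Slc6a8*, the sodium- and chloride-dependent transporter that brings creatine into the cell (chrX:73673150-73682502, plus strand), was higher in the csPIMT-/- pool at both ages and more so at 6 months. Its normalized count was 6138 in the control pool and 9771 in the csPIMT-/- pool at 2 months. At 6 months it was 6591 in the control pool and 15947 in the csPIMT-/- pool. The controls of both ages were close together and the csPIMT-/- pool of 6 months was the highest of the 4. The ratio was 1.56 at 2 months (1.51 to 1.61) and 2.36 at 6 months (2.29 to 2.42), and the ratio at 6 months was 1.51 times that at 2 months (1.45 to 1.58). Per read of *Ckm*, *Slc6a8* had 0.0782 and 0.0829 reads in the controls, 0.0786 in the csPIMT-/- pool of 2 months and 0.201 in that of 6 months. At 2 months, transporter and muscle kinase were thus higher by nearly the same factor.

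*Gatm*, the arginine:glycine amidinotransferase that makes guanidinoacetate in the first step of creatine synthesis (chr2:122594467-122611303, minus strand), was lower in the csPIMT-/- pool at both ages unless the GC trend was subtracted. Its normalized count was 427 in the control pool and 293 in the csPIMT-/- pool at 2 months, and 475 and 352 at 6 months. The control pools lay above both csPIMT-/- pools. The ratio was 0.673 (0.574 to 0.787) at 2 months and 0.721 (0.628 to 0.828) at 6 months. *Gatm* has the lowest GC content of the 7, at 43.2%, and with the GC trend of all genes subtracted its ratios became 1.43 and 1.78, the opposite direction.

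The upstream window of *Gatm* is shown as the one gene of the 7 that was lower at both ages (chr2:122611278-122611527, minus strand, RefSeq on GRCm38.p6, capitals as above).
Gatm: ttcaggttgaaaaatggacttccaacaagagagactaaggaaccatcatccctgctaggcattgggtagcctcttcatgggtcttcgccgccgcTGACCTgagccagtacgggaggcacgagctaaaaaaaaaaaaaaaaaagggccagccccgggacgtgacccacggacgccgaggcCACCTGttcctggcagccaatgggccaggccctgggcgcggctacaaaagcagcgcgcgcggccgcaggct
It holds an E-box 71 bases before the start and AGGTCA, on the other strand, 156 bases before it, and neither TATA form. The *Gamt* window held none of the 5 motifs, and *Ak1* has 4 annotated starts, all with an E-box.

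*Gamt*, the guanidinoacetate methyltransferase of the second step (chr10:80258151-80261012, minus strand), was high in a single pool. Its normalized count was 270 in the control pool and 610 in the csPIMT-/- pool at 2 months, and 329 and 284 at 6 months. The ratio was 2.22 (1.92 to 2.56) at 2 months and 0.841 (0.717 to 0.986) at 6 months, and with the control pool of the other age in its place the 6-month ratio was 1.03. *Ckm*, *Ckmt2*, *Ckb* and *Ak1* also had their highest normalized count in the csPIMT-/- pool of 2 months. That pool of the 4 had the highest sums of the brown fat, lung and smooth muscle markers, at 30044 (mostly *Cox7a1*), 1160 and 67321. The cardiomyocyte sum was also highest there, at 1664007, and the sums of the other lists were highest in other pools. Of the atrial markers, *Myl7*, *Myl4*, *Sln* and *Bmp10* were each highest in that pool, at 42908, 68851, 12629 and 8564. *Nppa*, and with it the atrial sum, was highest in the csPIMT-/- pool of 6 months. Whether other tissues bear on *Gamt* was not tested.

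The transporter and the synthesis genes can be set against each other within a library. Reads of *Slc6a8* per read of *Gatm* were 14.4 and 13.9 in the controls and 33.3 and 45.3 in the csPIMT-/- pools. The exact 95% intervals of the controls (13.1 to 15.8 and 12.7 to 15.2) lay below those of the csPIMT-/- pools (29.3 to 38.0 and 40.7 to 50.7). The quotient was thus 2.32 times that of the control at 2 months and 3.27 times at 6 months. The *Slc6a8* and *Gatm* transcripts differ in GC content (53.0% and 43.2%), and with the GC trend subtracted from both genes the change was 0.876 and 1.02, so the difference in the reads did not remain.

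*Ak1*, the cytosolic adenylate kinase of muscle (chr2:32621758-32635058, plus strand), had a normalized count of 26977 in the control pool and 39210 in the csPIMT-/- pool at 2 months. At 6 months the counts were 24342 and 30210. Both csPIMT-/- pools were above both control pools. The ratio was 1.42 (1.40 to 1.45) at 2 months and 1.21 (1.19 to 1.23) at 6 months, and with the GC trend subtracted it was 1.03 and 0.851.

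**Figure D3:**
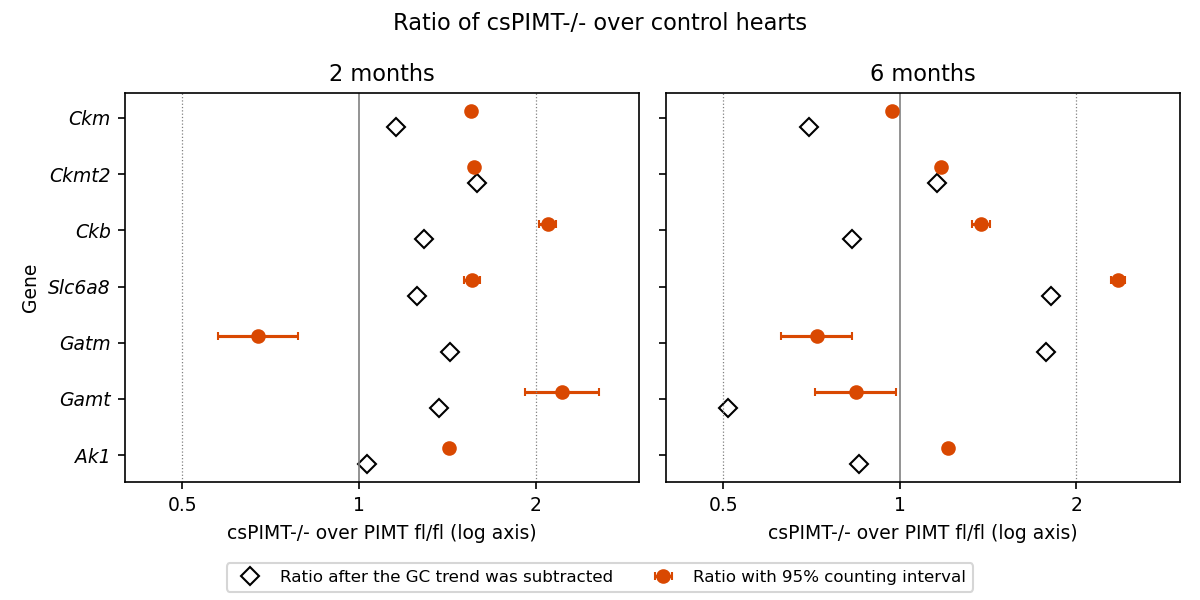
Ratio of the csPIMT-/- pool to the control pool for each of the 7 genes at 2 and 6 months on a logarithmic axis, with 95% Clopper-Pearson intervals of the reads (counting error only). Open diamonds are the ratios after the GC trend was subtracted. *Gatm* is below 1 at both ages before the subtraction and above 1 after it, and before it *Ckm* and *Gamt* are above 1 at 2 months and below it at 6 months.

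Levels between genes were compared per kb of transcript. In the control pool of 2 months *Ckmt2* had 37176 normalized counts per kb and *Ckm* had 28631 over its transcript of 2742 bases, or 63568 over the shorter one of 1235 bases, so their order depends on the transcript. *Ak1* followed with 12939, *Ckb* with 3368, *Slc6a8* with 1852, *Gamt* with 273 and *Gatm* with 179. In the csPIMT-/- pool of 6 months *Slc6a8*, at 4812 per kb, stood above *Ckb*, at 4600, and in the other 3 pools it stood below. By rank per kb among all genes, *Ckmt2* was 22 in 3 pools and 24 in the csPIMT-/- pool of 6 months. Replicate spread is unknown, so neighbours in this order cannot be told apart beyond counting error.

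The GC trend bears on each of these ratios. In the lowest of 20 bins of genes by GC content the median log2 ratio was -1.73 at 2 months and -1.77 at 6 months, and in the highest bin it was 0.74 and 0.81. The *Ckb* and *Gamt* transcripts, with 59.99% and 59.7% GC, lie near the upper end. With the trend subtracted, all 7 genes were above 1 at 2 months (median 1.29) and 3 of 7 at 6 months (median 0.851). *Ckmt2*, whose 50.5% GC lies at the median of all genes, barely moved, from 1.57 to 1.59 at 2 months and from 1.18 to 1.16 at 6 months. *Slc6a8* stayed above 1 at 1.25 and 1.81. *Ckb* went to 1.29 at 2 months and to 0.830 at 6 months, and *Ckm* to 1.16 and 0.699, or to 0.942 and 0.577 with its shorter transcript.

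**Figure D4:**
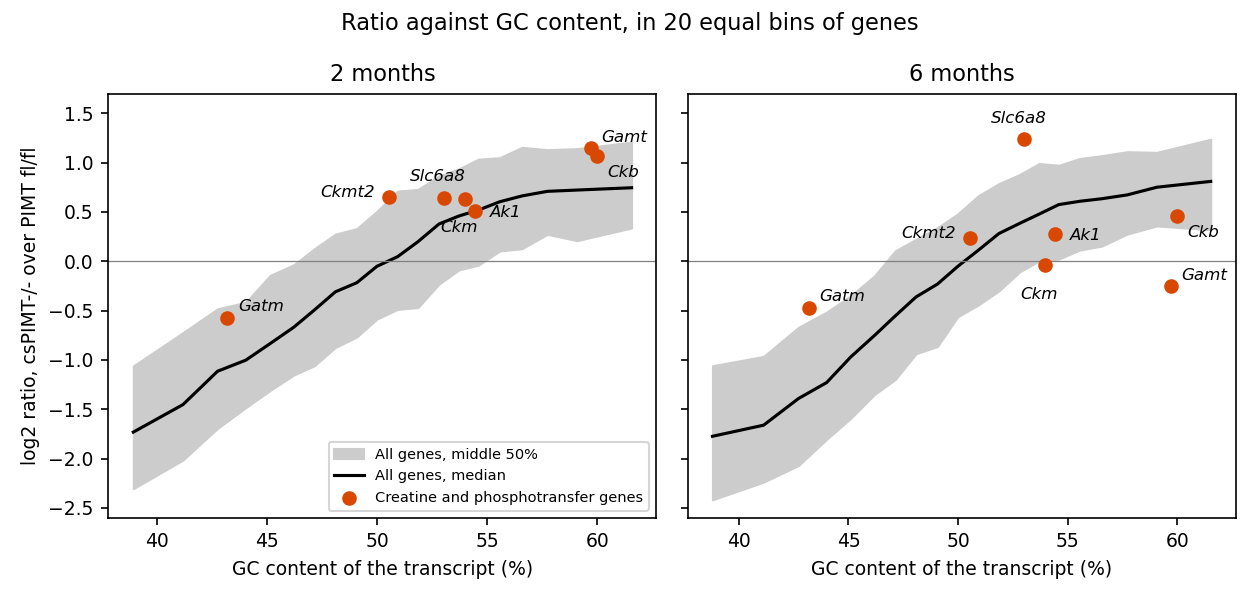
Log2 ratio of csPIMT-/- to control against GC content of the transcript at 2 and 6 months. The black line is the median and the band the middle 50% of all genes in 20 bins of equal size, and the points are the 7 genes. At 6 months *Slc6a8* and *Gatm* lie above the band, *Gamt* lies below it and *Ckm* lies at its lower edge.

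Set against age within a genotype, the 7 genes differed less between the control pools than between the csPIMT-/- pools, although the control pools differed in their atrial markers as given above. From 2 to 6 months the control ratios ran from 0.862 for *Ak1* to 1.16 for *Gamt*, and 0 of 7 genes passed 2-fold, where 5.21% of all genes were below 0.5 and 8.15% above 2. In the csPIMT-/- pools the ratio of 6 to 2 months was 0.452 for *Gamt*, 0.619 for *Ckm*, 0.621 for *Ckb*, 0.749 for *Ak1* and 0.862 for *Ckmt2*. It was 1.59 for *Slc6a8* and 1.17 for *Gatm*. Of the 7 genes 1 was below 0.5 and 0 were above 2, where 8.73% and 9.17% of all genes were. Both of these comparisons share a library with each genotype comparison. Whether the genotype difference itself depends on age could not be tested with 4 libraries, which leave no residual degree of freedom for it.

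In the limma fit over both ages, which treats the ages as a covariate and has 1 residual degree of freedom, *Slc6a8* was the only one of the 7 genes called. Its log2 difference was 0.98 (SE 0.237, limma adjusted p = 0.0332 over 14935 genes). *Ckb* differed by 0.81 (limma adjusted p = 0.0568) and did not pass. The remaining genes gave log2 differences of 0.48 for *Ckmt2*, 0.44 for *Ak1*, 0.49 for *Gamt*, 0.34 for *Ckm* and -0.48 for *Gatm*, with limma adjusted p from 0.222 to 0.471. Across all genes 12.1% were called higher and 17.9% lower, so 1 call of 7 is near the background. The call of *Slc6a8* was lost without the mean trend (limma adjusted p = 0.109) and with the GC trend subtracted (limma adjusted p = 0.207), where no gene of the table was called. It was also lost in 3 of the 4 fits that left out a library (limma adjusted p 0.110 to 0.150), and without the csPIMT-/- pool of 6 months *Ckb* was called in its place (limma adjusted p = 0.0241).

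The genes around the phosphate shuttle were taken from 7 lists of 47 genes, of which 40 were tested. At 2 months 3 were below 0.5 and 6 above 2, where 23% and 16.4% of all genes were. At 6 months 10 were below 0.5 and 6 above 2, where 25.7% and 16% of all genes were. Limma called 6 lower and 7 higher of the 40, against 17.9% and 12.1% of all genes, and called genes that did not pass 2-fold at both ages are named beside their lists after their values were seen. The median log2 ratio was 0.24 at 2 months and 0.06 at 6 months, where all genes had -0.03 at both ages.

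Among the nucleoside phosphate kinases, which spread the phosphate of ATP to other nucleotides, 7 were tested, with 1 called lower and 2 higher. *Guk1*, the guanylate kinase, had normalized counts of 3004 and 7597 at 2 months, control first, and 3475 and 7837 at 6 months. Its ratios were 2.48 and 2.20, and 1.60 and 1.41 with the GC trend subtracted. *Cmpk1*, the UMP-CMP kinase, had ratios of 0.230 and 0.428, and of 0.707 and 1.42 with the GC trend subtracted. *Nme3*, a nucleoside diphosphate kinase, was the other called higher, with a limma log2 difference of 1.04. With the GC trend subtracted its ratios were 1.08 and 1.60. Of the 3 other adenylate kinases tested, *Ak3*, the GTP-using enzyme of the mitochondrial matrix, was called lower (limma log2 difference -0.80) and none was called higher.

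In AMP and IMP metabolism, where the purine nucleotide cycle runs, limma called 2 lower and 1 higher of 7. *Adss*, an adenylosuccinate synthase, had ratios of 0.442 and 0.418, and of 1.03 and 1.12 with the GC trend subtracted. *Adk*, the adenosine kinase, was the other called lower, with a limma log2 difference of -0.85 but ratios of 1.18 and 1.07 with the GC trend subtracted. *Adssl1*, the muscle form of adenylosuccinate synthase, was called higher, with a limma log2 difference of 1.20. Its ratios with the GC trend subtracted were 1.67 and 1.33. Of the 7 subunits of AMP-activated protein kinase, the sensor of the AMP that adenylate kinase makes, 2 were called lower and 1 higher. Its catalytic subunit gene *Prkaa2* had normalized counts of 6054 and 2383 at 2 months and 8672 and 2707 at 6 months. The ratios were 0.386 and 0.304, and with the GC trend subtracted they were 1.05 and 0.927. *Prkaa1*, the other catalytic subunit gene, was called lower with a limma log2 difference of -1.12 but stood at 1.46 and 1.23 with the GC trend subtracted. *Prkag1*, which codes for a nucleotide-binding subunit, was called higher with a limma log2 difference of 0.88. It stood at 1.57 and 1.31 with the GC trend subtracted.

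Of the 9 genes tested for the supply of arginine, glycine and methyl groups to creatine synthesis, 0 were called lower and 2 higher. *Asl*, the argininosuccinate lyase that releases arginine, had normalized counts of 426 and 1065 at 2 months and 419 and 1385 at 6 months, with ratios of 2.45 and 3.22. *Shmt2*, the mitochondrial serine hydroxymethyltransferase, was the other called higher, with a limma log2 difference of 0.89. With the GC trend subtracted, *Asl* had ratios of 1.67 and 2.18, and *Shmt2* went from 1.96 and 1.65 to 1.26 and 1.05. The mitochondrial adenine nucleotide carriers and outer membrane channels, through which the mitochondrial kinase exchanges its substrates, held 6 genes and none was called. Their median log2 ratio was 0.02 at 2 months and -0.08 at 6 months. Of these 6, which include the phosphate carrier *Slc25a3*, 4 had ratios above 1 at 2 months and 2 at 6 months. *Vdac3* was the 1 gene below 0.5, at 0.471 at 6 months, and at 1.03 with the GC trend subtracted. *Slc25a4* had a ratio of 0.763 at 6 months, and 0.651 with the GC trend subtracted.

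**Figure D5:**
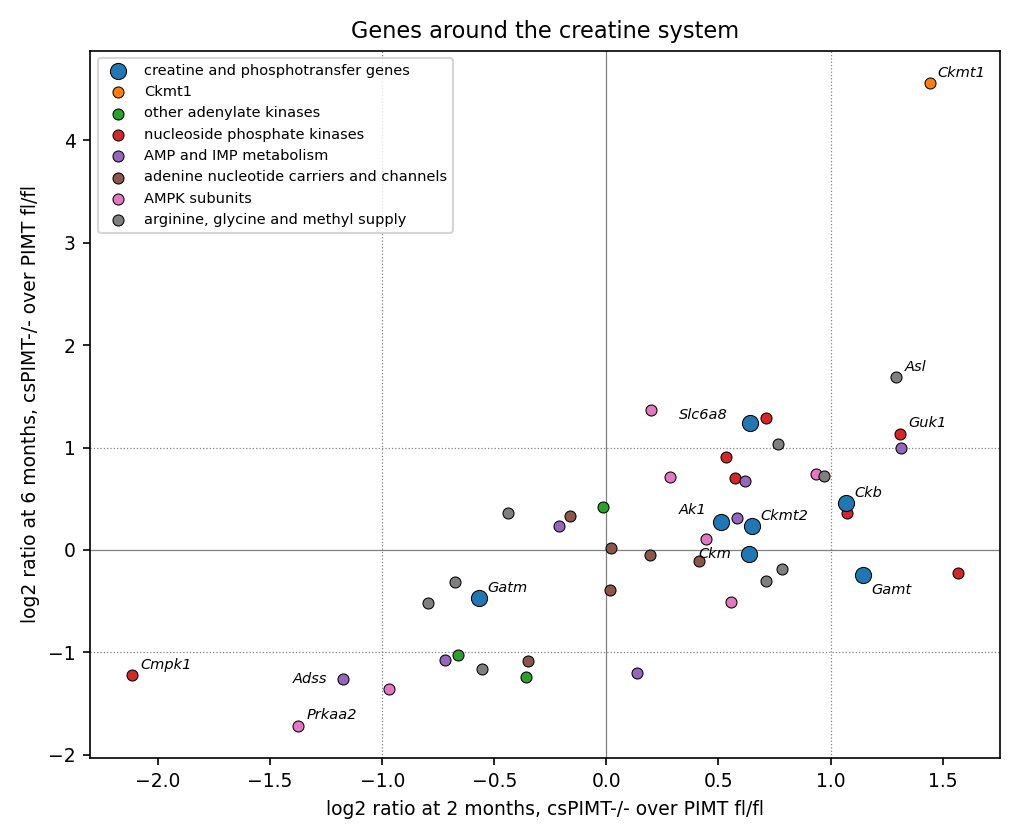
Log2 ratio of csPIMT-/- to control at 6 months against that at 2 months for the 7 genes and the genes of the lists around them, 1 point per gene, with dotted lines at 2-fold. *Ckmt1* lies highest at 6 months and *Cmpk1* lies farthest to the left.

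Genes with the most similar course over the 4 libraries were sought among 10834 genes with at least 100 reads in each library, by the root mean square distance of centred log2 values. Nearest to *Ckm* were *Trmt12*, *Rtn2* and *Mogs*, at distances of 0.016, 0.022 and 0.028, and 748 genes lay within 0.2. For *Ckmt2*, 1452 genes lay within 0.2. *Engase*, *Supt4h1* and *Pltp* were nearest to *Ckb*, with 630 genes within 0.2. With 4 points many genes come this close, and a short distance is a description only.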

How the data were processed

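Per the labels and the study's methods, single-end reads of 50 bases from directional libraries of oligo-dT-selected mRNA were trimmed, cleared of ribosomal reads, mapped to mm10 with STAR, counted with htseq-count (HTSeq 0.6.1p1) and scaled with DESeq2. The deposited values are normalized counts per gene (signal), also in the file headed as read counts. Dividing by the value of 1 read (0.865 to 1.23) gave whole reads for 100% of values, and 29823073 to 40705783 reads per library.

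Ratios used median-of-ratios factors of the 2 libraries compared, for genes with at least 10 reads. The limma fit (3.58.1, R 4.3.3; TMM, pseudocount 1, mean trend, Benjamini-Hochberg) had genotype and age. edgeR 4.0.16 and DESeq2 1.42.0 were run on recovered reads. GC trends used a smooth fit over the longest principal transcripts in GENCODE. Scripts were tested on simulated data. How reads shared by related genes were counted is not given in the sources used here.

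The members and all lists were chosen with earlier results of these data known. Pathway genes were named if past 2-fold in the same direction at both ages with at least 100 reads in a library, up to 3 per list. From each marker list the marker with the most reads was named. The genes nearest in course to *Ckmt2* are not reported here.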

Additional observations from a re-analysis of the deposited data

Results flagged for a closer look

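*Ckm* and *Gamt* stood on opposite sides of 1 at the 2 ages. The csPIMT-/- over control ratio of *Ckm* was 1.55 at 2 months and 0.971 at 6 months, and the second value was 0.997 on the deposited scale. The ratio of *Gamt* was 2.22 at 2 months and 0.841 at 6 months, from 273 reads in the csPIMT-/- pool and 374 in the control pool of that age. The difference between the ages was not tested, since each value compares 1 pool with 1 pool.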

How the results depend on the processing

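The median log2 ratio of the 7 genes at 2 months was 0.64, and became 0.70 with TMM, 0.58 with total reads, 0.37 with the GC trend subtracted and 0.56 against both controls summed. At 6 months it was 0.23, and became 0.27 on the deposited scale, 0.26 with TMM, 0.20 with total reads, 0.13 against the control of the other age and 0.20 against both controls. It turned to -0.23 with the GC trend subtracted. That subtraction also turned the log2 ratio of *Gatm* to 0.52 at 2 months and 0.83 at 6 months, and at 6 months that of *Ckb* to -0.27 and of *Ak1* to -0.23. With the GC content of the shorter transcript, an alternative chosen after seeing the data, *Ckm* stood at -0.086 at 2 months. The log2 change of *Slc6a8* over *Gatm* at 2 months turned from 1.21 to -0.19 with the GC trend subtracted from both, an alternative also chosen after seeing the data. *Gamt* stood at 0.045 at 6 months against the control of the other age. Whether GC content is the cause was not tested. With a minimum of 100 reads, 1618 genes were above 2-fold at 2 months, against 2487. Of the 7 genes limma called 1, and 0 without the mean trend, 0 with the GC trend subtracted, 2 with a pseudocount of 4, 2 without a filter and 2 with DESeq2, the second being *Ckb*. Fits that left out 1 library had genotype alone, without age, and called 0 to 1 of the 7. *Slc6a8* was lost without either control or without the csPIMT-/- pool of 6 months (limma adjusted p 0.110 to 0.150), and in the last the 1 called was *Ckb*. Over all genes limma called 2666 lower and 1810 higher, and 0 and 0 without the mean trend (5931 at an unadjusted p below 0.05) or with the GC trend subtracted (3581). With genotype alone and all 4 libraries it called 2691 and 1962, and without 1 library 98 to 2665 lower and 170 to 1471 higher, the fewest without the control of 6 months. The share of *Ckb* per kb was 4.87% and 4.28% in the controls and 6.42% and 5.31% in the csPIMT-/- pools, and with the shorter *Ckm* transcript, also chosen after seeing the data, 3.23%, 2.92%, 4.30% and 3.77%. No paired analysis was possible because each genotype and age has 1 pooled library and the labels number no replicates.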
